A study of Mus musculus with 5 samples.

Results

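The last step of a Fanchinoline time course was examined by comparing MutuDC cells after 24 h with the compound against MutuDC cells after 12 h with it. Both sides are treated cells, so the comparison shows what still moved late in the treatment, and not what the compound did against untreated cells. It rests on 2 of the 5 libraries of the study, 1 per side. Of 53700 gene entries, 8596 reached at least 10 CPM (counts scaled to library size, with TMM factors) in 1 of these libraries or in both and were compared.

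MutuDC is an established mouse cell line that resembles type 1 conventional dendritic cells (cDC1). Such lines came from spleen tumours of mice in which a CD11c promoter drove the large T antigen of simian virus, so the cells divide without growth signals. The labels give a vehicle control, taken here as 0 h, and Fanchinoline treatment for 2, 6, 12 and 24 h. The design text instead names untreated cells as the control, and no dose is given in the sources read here. All groups share the cell line and poly-A RNA-seq of whole cultures, and no untreated library was taken at 12 or 24 h. Time in culture and time with the compound therefore cannot be told apart, and neither can a change in RNA per cell and a change in the mix of cells.

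The design text speaks of triplicates, while the table holds 1 library per time point, and whether replicates were pooled is not stated. The spread between replicates is thus unknown and no p-values are given. Every log2 ratio below is 24 h over 12 h unless another pair is named, and its bracketed range is a 95% exact (Clopper-Pearson) interval that covers counting error only. A gene was said to rise or fall when it differed by at least 1.5-fold (0.58 on the log2 scale) and its interval excluded a ratio of 1. Such a difference is one between 2 libraries. Total counts lay between 33568526 and 42854511, with 37999354 at 12 h and 40730837 at 24 h, so that 10 CPM was 377 counts at 12 h and 427 at 24 h.

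The cDC1 subset takes up dead cells and presents their antigens to killer T cells. Dendritic cells read their surroundings through surface receptors that carry activating or inhibitory signals, and through sensors of microbial nucleic acids. Interferon-stimulated genes are switched on when factors activated by interferon signalling bind interferon response elements in their promoters. Lysosomal genes are switched on by TFEB and its relatives, which the folliculin complex helps to hold in check when nutrients are plentiful. ATF4, the factor of the integrated stress response, drives genes of amino acid supply, and SREBP factors drive genes of cholesterol and fatty acid synthesis.

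The genes that rose between 12 and 24 h included receptors of myeloid cells such as Axl and Fcgr4, interferon-induced genes such as Oas1a and Ifit2, and both folliculin partners Flcn and Fnip1, and those that fell included Trib3 and Bcat1. In all, 52 genes rose by at least 1.5-fold (0.605% of compared genes) and 11 fell (0.128%). At 2-fold, 6 rose (0.0698%) and 2 fell (0.0233%). The step was smaller than the opening one: 618 genes (7.13%) were at least 1.5-fold higher and 316 (3.64%) lower at 2 h over vehicle. It was nearer in size to the steps between, with 65 (0.756%) and 28 (0.326%) for 6 h over 2 h and 29 (0.337%) and 75 (0.871%) for 12 h over 6 h. The SD of log2 ratios across genes was 0.178 here, against 0.394, 0.201 and 0.193 for the preceding steps, and counting alone would give 0.0549.

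**Figure D1:**
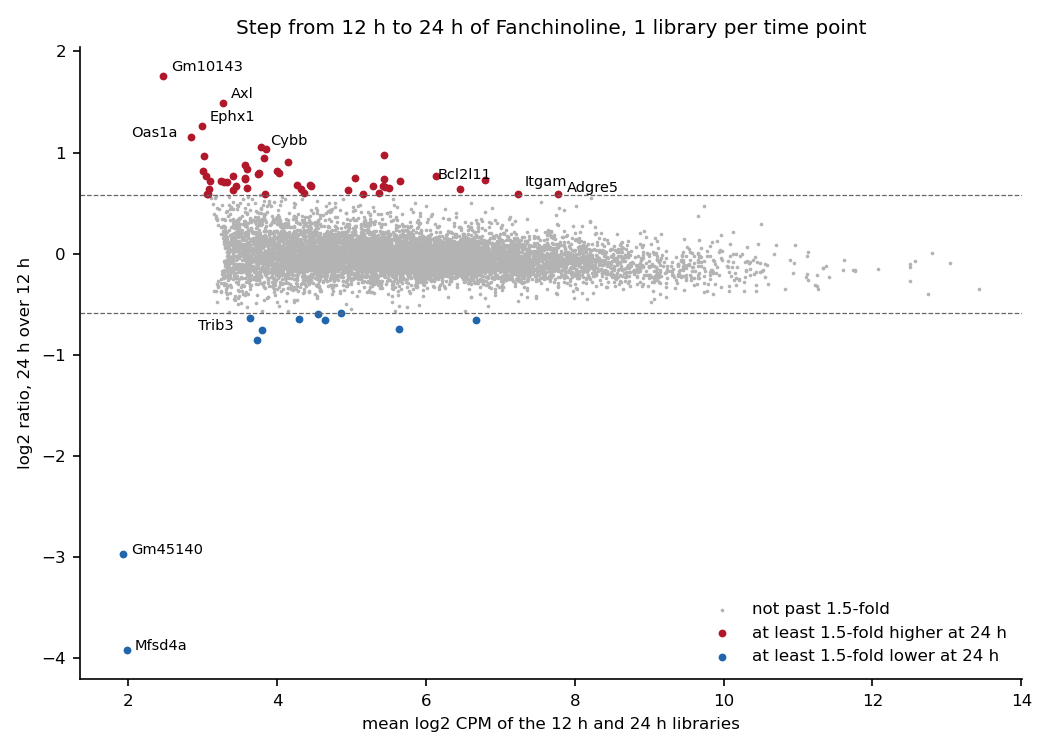
Log2 ratio of 24 h over 12 h (vertical axis) against the mean log2 CPM of both libraries (horizontal axis), 1 point per compared gene; red points are the 52 genes at least 1.5-fold higher, blue points the 11 lower, and dashed lines mark 1.5-fold. Most red points lie at low levels, and Mfsd4a and Gm45140 lie far below all other genes.

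The genes that rose were of low level. Of the 52, 24 had under 10 CPM at 12 h and entered through the 24 h library alone, so they had to differ, and this holds for all 6 genes at least 2-fold higher. With genes chosen by a mean of at least 10 CPM over all 5 libraries instead, 32 rose by 1.5-fold and 2 by 2-fold, Cybb and Fcgr4. At the edge of the rule, Cers4, Adgre5 and Sult1a1 passed with 0.59 each, and Aph1c at 0.58, N4bp3 at 0.57 and Epm2aip1 at 0.56 fell just short of it. Genes outside the 15 largest ordinary-symbol ratios are named below as members of role groups, and these groups were drawn up after the values were seen, so that their sizes say nothing about how such genes moved in general. By the same choice of genes, 24 h was the highest of the 5 libraries for 46 of the 52 (22.4% of compared genes).

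Among the 52 genes that rose, 16 encode receptors and other proteins of the cell surface, with log2 ratios between 0.59 and 1.49. The share of such proteins among all compared genes was not counted. The highest ratio of an ordinary gene was that of Axl, a TAM-family receptor kinase that binds phosphatidylserine on dying cells through bridging proteins. Axl stood at 3.08 CPM in vehicle and at 5.84, 5.28, 5.70 and 16.1 CPM after 2, 6, 12 and 24 h. Its level was flat from 2 to 12 h and then rose 2.81-fold, a log2 ratio of 1.49 (1.28 to 1.73). The gene lies on chromosome 7 at 25757273 to 25788705 on GRCm38. Of the other TAM kinases, Mertk was at 0 counts in all 5 libraries and Tyro3 at 1.01 CPM at 12 h and 0.75 at 24 h, too low to be compared. Mfge8, a bridging protein for phosphatidylserine, was abundant and stood at 728 CPM at 12 h and 1006 at 24 h, a ratio of 0.47 (0.45 to 0.49) that did not pass the rule.

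Receptors for antibody rose as well. Fcgr4, an activating Fc receptor, stood at 10.9 CPM in vehicle and at 12.1, 8.15, 9.99 and 20.6 CPM after 2, 6, 12 and 24 h, a ratio of 1.04 (0.87 to 1.22). Fcgr2b, the inhibitory Fc receptor, stood at 6.22 CPM in vehicle and at 5.84, 4.99, 5.70 and 11.2 CPM after 2, 6, 12 and 24 h, a ratio of 0.97 (0.74 to 1.21). Before 24 h, Fcgr4 ranged between 8.15 and 12.1 CPM and Fcgr2b between 4.99 and 6.22 CPM, and 24 h stood above the 4 earlier libraries for both. Both were under 10 CPM at 12 h and were compared through the 24 h library alone, so 24 h had to exceed 12 h. The remaining measured members of the family did not pass the rule: Fcgr3 had 0.32, the common signalling chain Fcer1g 0.25 and the neonatal receptor Fcgrt 0.03. Fcgr1, the high-affinity receptor of macrophages and monocytes, was nearly absent, with 0.0795 CPM at 12 h and 0.281 at 24 h.

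Receptors that carry inhibitory motifs or restrain activation were also among those that rose. Lilrb4a, an inhibitory immunoglobulin-like receptor, went from 10.2 CPM at 12 h to 19.6 at 24 h, a ratio of 0.95 (0.78 to 1.13). Havcr2, which encodes TIM-3, a receptor of cDC1 cells that limits nucleic acid sensing, stood at 8.11 CPM in vehicle and at 9.0, 9.75, 11.9 and 21.1 CPM after 2, 6, 12 and 24 h, higher at each time point than at the one before. The largest difference was the last, with a ratio of 0.82 (0.66 to 0.99). Slamf7, a homotypic SLAM-family receptor, went from 12.8 to 24.0 CPM, a ratio of 0.91 (0.75 to 1.07), and was the only one of 8 measured SLAM-family members past the rule. In this family, which was chosen after the values were seen, 7 of the 8 had intervals above 1, as did 19.4% of compared genes. Siglecf (0.63) rose, and so did Pira2 (0.59), which is an activating receptor. Pirb, the inhibitory counterpart of the Pira genes, stood at 0.46 and did not pass the rule. Reads of Lilrb4a and Pira2 can match near-identical copies, and Lilrb4a also shares exon positions with Gm49339, so how their counts were divided is uncertain.

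Receptors that guide movement and adhesion formed a further set. C3ar1, the receptor for the complement fragment C3a, stood at 7.26 CPM in vehicle and at 8.98, 8.62, 12.2 and 21.4 CPM after 2, 6, 12 and 24 h, a ratio of 0.80 (0.64 to 0.97). Cxcr4, the receptor for CXCL12, stood at 12.0 CPM in vehicle and at 15.5, 18.6, 25.3 and 42.8 CPM after 2, 6, 12 and 24 h, higher at each time point than at the one before, with a ratio of 0.75 (0.64 to 0.87). Ccr2, a monocyte chemokine receptor, stood at 7.34 CPM at 12 h and 12.1 at 24 h (0.72). Xcr1, the cDC1 chemokine receptor, stood at 278 CPM at 12 h and 298 at 24 h, a ratio of 0.10. The most abundant genes that rose were the adhesion receptor Adgre5, at 177 and 267 CPM (0.59), the integrin alpha chain Itgam, at 122 and 185 CPM (0.59), and the cadherin Cdh17, at 85.6 and 142 CPM (0.73). Itgb2, the beta chain that pairs with Itgam, stood at -0.02. Ptpro (0.75), a receptor phosphatase, and Plxnc1 (0.65), a semaphorin receptor, completed the group. Ccr2, Ptpro and Plxnc1 had under 10 CPM at 12 h and were compared through the 24 h library alone, so they had to be higher at 24 h.

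**Figure D2:**
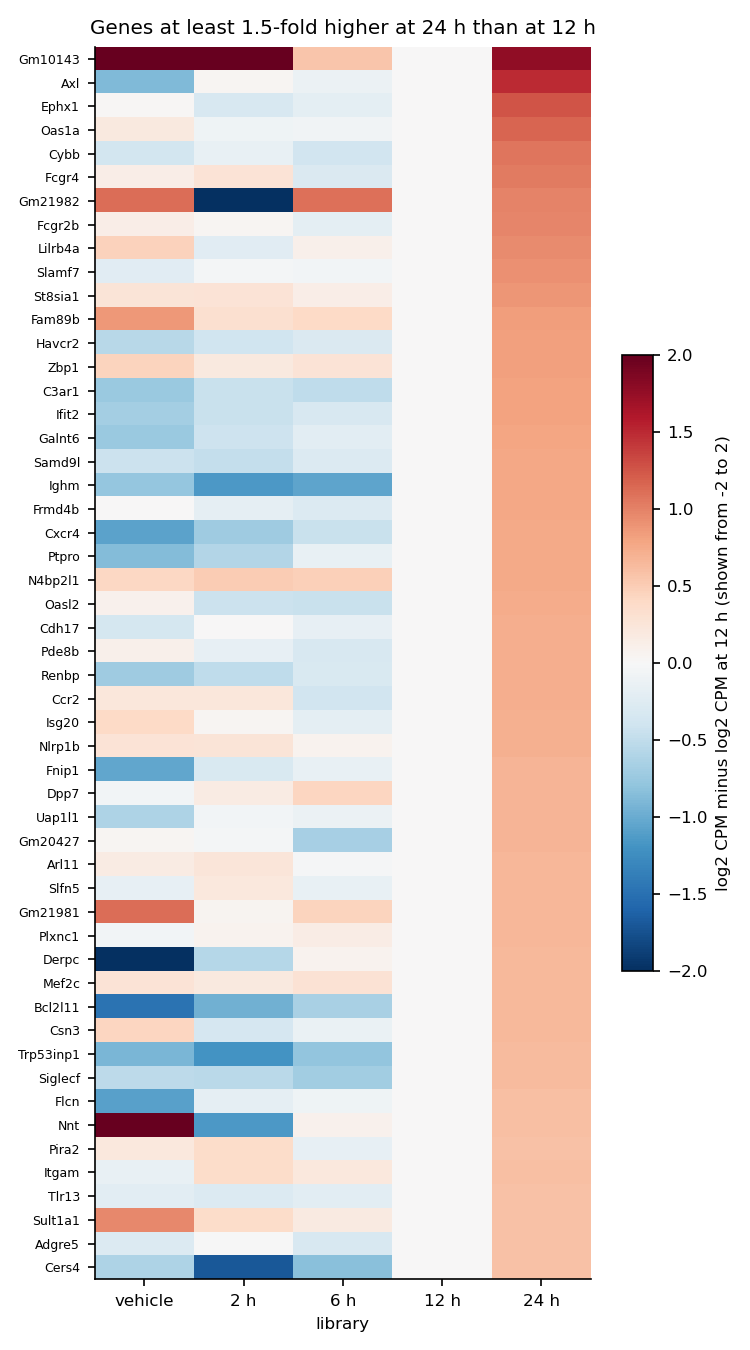
Log2 CPM minus log2 CPM at 12 h in each of the 5 libraries (columns) for the 52 genes that rose by at least 1.5-fold (rows, ordered by the ratio of 24 h over 12 h); colours run from -2 to 2 and larger differences are shown at the ends. The 24 h column is red in all 52 rows by the rule itself, while the columns to the left of 12 h differ from gene to gene.

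Interferon-induced genes were 7 of the 52 that rose, and 5 of these 7 (Oas1a, Zbp1, Samd9l, Isg20 and Slfn5) had under 10 CPM at 12 h and were compared through the 24 h library alone. The list of interferon-stimulated genes had 22 measured members of 36, with a median log2 ratio of 0.39 against -0.03 over all compared genes. Of the 22, 5 rose (Oas1a, Zbp1, Ifit2, Oasl2 and Isg20) and 0 fell, against 0.605% and 0.128% of compared genes. Intervals lay above 1 for 20 (19.4% of compared genes), and 17 were highest at 24 h (22.4%). The median depended on the level of the genes: 4 members were under 10 CPM at 12 h, and it was 0.26 over the 18 members with a mean of at least 10 CPM over all 5 libraries and 0.18 over the 15 with at least 20 CPM at 12 or 24 h. Over vehicle the same 22 genes stood at a median of -0.02 at 12 h and 0.37 at 24 h, ratios that share libraries with the step.

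To show what these promoters share, the 250 bases before the transcription start, taken from RefSeq on GRCm38.p6, were searched on both strands for the core of the interferon response element, GAAA followed after any 2 bases by a second GAAA. None of the 3 motifs searched in this study contains another, and overlapping matches were kept. The motif was in the window of 3.46% of 27025 genes with a window and of 3.36% of the compared genes, in 6 of 15 interferon-list genes with a window (40%) and in 5 of 37 genes that rose (13.5%). In other lists it was in 3 of 29 lysosomal genes (10.3%) and 1 of 13 integrated stress response regulators (7.69%). It was in 0 of 17 folliculin-list genes, 0 of 11 amino acid synthesis genes and 0 of 4 amino acid transporters. The 5 genes that rose and held the motif were Oas1a, Cybb, Fcgr4, Plxnc1 and Slfn5, all under 10 CPM at 12 h. Of the 6 genes that fell with a window, 0 held it. The windows of the 3 such genes at least 2-fold higher are printed below, with that of Isg15 as a standard interferon gene. Each is printed 5′ to 3′ on the strand of its gene, with matches in capitals (TTTC, any 2 bases and TTTC where the match is on the other strand). Oas1a lies at chr5:120907526-120907775 on the minus strand, Cybb at chrX:9469325-9469574 on the minus strand, Fcgr4 at chr1:171018676-171018925 on the plus strand and Isg15 at chr4:156200819-156201068 on the minus strand.
Oas1a: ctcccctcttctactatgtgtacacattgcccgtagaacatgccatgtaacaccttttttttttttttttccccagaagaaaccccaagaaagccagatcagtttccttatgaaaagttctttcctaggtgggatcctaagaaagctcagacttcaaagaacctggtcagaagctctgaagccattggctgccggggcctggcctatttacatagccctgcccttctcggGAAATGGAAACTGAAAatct
Cybb: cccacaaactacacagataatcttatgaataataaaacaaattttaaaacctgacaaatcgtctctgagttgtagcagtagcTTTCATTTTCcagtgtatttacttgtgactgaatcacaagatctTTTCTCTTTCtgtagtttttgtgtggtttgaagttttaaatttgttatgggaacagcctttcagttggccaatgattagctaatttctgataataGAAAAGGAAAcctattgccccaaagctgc
Fcgr4: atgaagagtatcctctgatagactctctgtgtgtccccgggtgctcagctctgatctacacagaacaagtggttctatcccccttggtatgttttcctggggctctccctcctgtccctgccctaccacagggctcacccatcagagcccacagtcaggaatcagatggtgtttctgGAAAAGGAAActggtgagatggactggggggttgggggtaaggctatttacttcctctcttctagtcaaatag
Isg15: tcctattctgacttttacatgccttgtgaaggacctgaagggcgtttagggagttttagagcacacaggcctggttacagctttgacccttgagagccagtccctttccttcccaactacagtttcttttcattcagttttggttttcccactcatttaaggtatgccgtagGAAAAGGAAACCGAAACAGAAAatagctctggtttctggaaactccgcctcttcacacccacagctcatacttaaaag
In Oas1a and Isg15 the matches overlap one another, and in Cybb 3 separate matches are spread over the window, the first 168 bases before the start. A match describes letters in a window and does not show that a factor was bound.

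Oas1a, which makes the messenger that activates RNase L on double-stranded RNA, stood at 5.43 CPM in vehicle and at 4.45, 4.52, 4.74 and 10.6 CPM after 2, 6, 12 and 24 h. Its level at 24 h was above the 4 others, which lay within a narrow range, and its ratio was 1.15 (0.91 to 1.42). Oas1a has near-identical neighbours, between which reads can be divided. Oasl2 had a ratio of 0.74, Oas3 stood at 151 and 162 CPM (0.09) and Oasl1 at 226 and 221 CPM (-0.03), while Oas2 had 1.91 and 4.4 CPM and was not compared. The most abundant members of the family thus stood near a ratio of 1.

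Ifit2, a tetratricopeptide protein that acts on viral RNA, stood at 6.28 CPM in vehicle and at 7.39, 8.10, 10.1 and 17.6 CPM after 2, 6, 12 and 24 h. It was higher at each time point than at the one before, and its ratio was 0.80 (0.62 to 0.98). Zbp1, a sensor of Z-form nucleic acids that can start cell death, went another way, from 8.11 CPM in vehicle down to 5.96 at 12 h and up to 10.5 at 24 h (0.82, 0.59 to 1.06). The exonuclease Isg20 (0.71), Samd9l (0.77), an inhibitor of translation, and Slfn5 (0.67) also rose. Slfn8 at 0.54 and Slfn9 at 0.49 lay short of the rule, and reads of Schlafen genes can match several copies.

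Other members of the interferon list did not pass the rule. Isg15, a ubiquitin-like protein, stood at 25.1 CPM in vehicle, 19.0 at 12 h and 25.5 at 24 h, a ratio of 0.43 (0.29 to 0.56), so that its level at 24 h was that of vehicle. Mx1 had 0.40, Xaf1 0.41, Dhx58 0.46, Parp14 0.47 and Cxcl9 0.48. Mx1, Xaf1 and Cxcl9 were at 24 h still below vehicle, by -0.12, -0.21 and -0.67. The regulator Irf1, at 200 and 191 CPM (-0.07), differed little between 12 and 24 h.

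Sensors and the phagocyte oxidase gave 3 further genes that rose. All 3 had under 10 CPM at 12 h and were compared through the 24 h library alone, so they had to be higher at 24 h. Cybb, the catalytic subunit of the NADPH oxidase that makes superoxide, stood at 7.32 CPM in vehicle and at 8.49, 7.23, 9.44 and 19.8 CPM after 2, 6, 12 and 24 h, a ratio of 1.06 (0.89 to 1.25). The first 4 libraries lay between 7.23 and 9.44 CPM. Its partners did not pass the rule: Cyba stood at -0.03, Ncf1 at -0.02, Ncf4 at -0.23 and Rac2 at -0.03. Nlrp1b, an inflammasome sensor with close copies, had 0.71 (0.51 to 0.92), Casp1, the caspase it engages, 0.52 and Aim2 0.15. Tlr13, a sensor of bacterial ribosomal RNA, went from 6.76 to 10.2 CPM (0.59). It was the only one past the rule among 11 measured genes of toll-like receptors and their adaptors, of which 6 are receptors, and Tlr9, a DNA sensor, had 0.34.

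**Figure D3:**
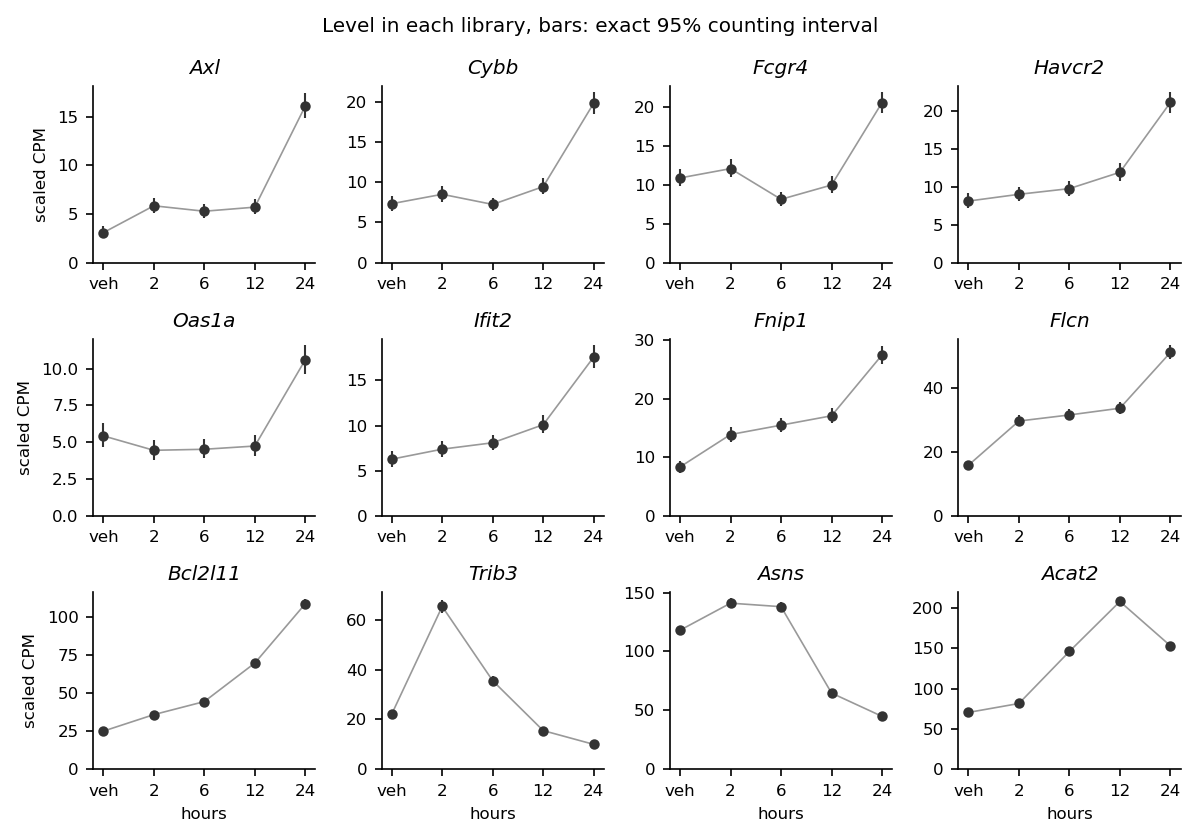
Scaled CPM (vertical axes, each from 0) in vehicle and after 2, 6, 12 and 24 h for 12 genes; points are single libraries, bars are 95% exact counting intervals and lines only join the points. Axl, Cybb, Fcgr4 and Oas1a are highest at 24 h and differ less among the 4 earlier libraries. Axl, Fnip1, Flcn and Bcl2l11 were already above vehicle at 2 h. Trib3 and Asns are lowest at 24 h, and Acat2 peaks at 12 h.

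Flcn and Fnip1, partners in the folliculin complex, both rose. Flcn, folliculin, stood at 15.8 CPM in vehicle and at 29.6, 31.5, 33.6 and 51.0 CPM after 2, 6, 12 and 24 h, and Fnip1, a folliculin-interacting protein, at 8.36, 13.9, 15.5, 17.1 and 27.5 CPM in the same libraries. Both showed a rise at 2 h, little difference to 12 h and a further one at 24 h, with ratios of 0.60 (0.50 to 0.70) and 0.68 (0.54 to 0.82). Fnip2, the other interacting protein, had 0.30 and the mTORC1 inhibitor Tsc1 0.34, neither past the rule. The list of 17 folliculin, TFEB and mTORC1 genes had 2 that rose and 0 that fell, against 0.605% and 0.128% of compared genes. Its median was 0.02, and Tfeb itself stood at -0.05.

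Lysosomal genes shared a small difference. Of 39 measured lysosomal hydrolases, membrane proteins and proton pump subunits, 36 stood above a ratio of 1 (3493 of 8596 compared genes did). Of the 39, 31 had intervals above 1 (19.4% of compared genes did) and 2 below, and 29 were highest at 24 h (22.4%). Their median was 0.17, 0.19 after adjustment for transcript length and GC content, and 0 passed the rule, the largest ratio being 0.34. Atp6ap2, an accessory protein of the proton pump, stood at 94.8 and 120 CPM (0.34), the pump subunit Atp6v0d1 at 265 and 332 (0.32) and Lamp1, an abundant protein of the lysosomal membrane, at 942 and 1072 (0.19). The hydrolases Tpp1 (0.26) and Ctsl (0.25) stood above 1 and Glb1 below (-0.23). None of these was low in level, and all 39 had at least 10 CPM at both times.

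The palindrome TCACGTGA, the core of the element that TFEB binds, was in the window of 0.907% of all genes, 2.13% of compared genes and 4 of 29 lysosomal genes with a window (13.8%): Atp6v1a, Ctsa, Gla and Mcoln1. It was in 0 of 17 folliculin-list genes with a window and, among genes that rose, in the window of Dpp7 alone. A single-match window of a pump subunit and of a hydrolase are shown, Atp6v1a at chr16:44139260-44139509 on the minus strand and Ctsa at chr2:164833523-164833772 on the plus strand, both from RefSeq on GRCm38.p6 with the palindrome in capitals.
Atp6v1a: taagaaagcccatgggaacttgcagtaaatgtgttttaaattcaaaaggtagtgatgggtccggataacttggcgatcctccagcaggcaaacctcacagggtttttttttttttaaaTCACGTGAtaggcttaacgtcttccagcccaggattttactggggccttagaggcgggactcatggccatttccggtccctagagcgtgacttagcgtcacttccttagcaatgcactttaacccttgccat
Ctsa: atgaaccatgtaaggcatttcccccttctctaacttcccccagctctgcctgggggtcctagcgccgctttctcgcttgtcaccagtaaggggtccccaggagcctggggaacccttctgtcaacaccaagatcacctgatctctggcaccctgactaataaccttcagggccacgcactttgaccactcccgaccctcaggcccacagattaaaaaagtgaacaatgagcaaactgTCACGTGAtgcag
The match lies 132 bases before the start in Atp6v1a and 13 bases before it in Ctsa.

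Few genes of cell death passed the rule. Bcl2l11, which encodes the death-promoting protein BIM, stood at 25.0 CPM in vehicle and at 35.9, 44.5, 69.9 and 109 CPM after 2, 6, 12 and 24 h. It was higher at each time point than at the one before, and the last step had a ratio of 0.64 (0.58 to 0.71). It was the only one of 27 measured BCL2-family, apoptosome and caspase genes past the rule, with Pmaip1, which encodes the death-promoting protein NOXA, at 0.39 and a list median of 0.03. Trp53inp1, a p53 target, rose from 8.51 to 13.2 CPM (0.63). It was the only one of 16 measured genes of p53 and its targets to pass, with Cdkn1a, a cell cycle inhibitor, at 0.42 and a list median of 0.09.

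Enzymes gave 10 of the genes that rose. Ephx1, an epoxide hydrolase of drug metabolism, stood at 5.15 CPM in vehicle and at 4.07, 4.45, 5.09 and 12.2 CPM after 2, 6, 12 and 24 h. Its level was flat to 12 h, and its ratio of 1.26 (1.02 to 1.51) was the second among ordinary genes. Among them were 4 enzymes that handle sugars: St8sia1, a sialyltransferase that makes gangliosides, had 0.88, Galnt6, which starts O-linked sugar chains, 0.79, Renbp, of amino sugar metabolism, 0.72, and Uap1l1, related to a nucleotide sugar enzyme, 0.67. Also in this group were the peptidase Dpp7 (0.68), the phosphodiesterase Pde8b (0.72), the ceramide synthase Cers4 (0.59) and the sulfotransferase Sult1a1 (0.59), which at 43.6 CPM stayed under its 56.2 CPM in vehicle.

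Of the remaining genes that rose, Ighm, the immunoglobulin heavy chain, stood at 31.5 CPM in vehicle and at 24.5, 26.0, 54.1 and 92.3 CPM after 2, 6, 12 and 24 h (0.77, 0.69 to 0.85). It was the only 1 of 6 B cell markers at 10 CPM or more, and Cd79a, a chain of the B cell receptor, had 0 counts at 12 h and 2 at 24 h. Fam89b (0.84) returned from 8.93 to 16.0 CPM, near its 16.3 CPM in vehicle. Mef2c, a transcription factor of myeloid cells, had 0.64, Arl11, a small GTPase, 0.67, and Frmd4b 0.77.

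Among the 11 entries that fell, 6 had ordinary symbols, and 2 of them are tied to amino acid supply. Trib3, a pseudokinase induced by ATF4, stood at 22.1 CPM in vehicle and at 65.5, 35.6, 15.5 and 9.96 CPM after 2, 6, 12 and 24 h, a ratio of -0.63 (-0.82 to -0.45). It was highest at 2 h and lower at each later time point than at the one before. Bcat1, which transfers amino groups of branched-chain amino acids, stood at 58.3 CPM in vehicle and at 88.1, 77.4, 35.3 and 23.4 CPM after 2, 6, 12 and 24 h, the same order of levels, with a ratio of -0.59 (-0.71 to -0.48). Fam43a, of little-known function, followed it too, with 51.0 CPM at 2 h, 24.4 at 12 h and 15.6 at 24 h (-0.64).

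Other genes of amino acid supply were lower at 24 h without passing the rule. Of 11 measured ATF4 targets of amino acid synthesis, 10 had intervals below 1 (35.0% of compared genes did), 9 were lowest at 24 h (29.2% of compared genes) and the median was -0.28, -0.25 after adjustment for length and GC content. Over vehicle the same median was -0.38 at 12 h and -0.66 at 24 h. Asns, asparagine synthetase, stood at 118 CPM in vehicle and at 141, 138, 64.6 and 44.8 CPM after 2, 6, 12 and 24 h, with the drop between 6 and 12 h (log2 ratio -1.10) larger than that to 24 h (-0.53, -0.61 to -0.44). Pycr1, of proline synthesis, had -0.50, Shmt2, of serine and folate metabolism, -0.45 and Psat1, of serine synthesis, -0.29.

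The 7 measured transporters had a median of -0.14, with 4 intervals below 1 (35.0% of compared genes) and 0 above. Slc6a9, a glycine transporter, stood at -0.49 (15.6 and 11.1 CPM). Slc7a5, which exchanges large neutral amino acids, had -0.38 (139 and 107 CPM) and Slc1a5 -0.24. Slc7a1 (-0.06), Slc38a1 (-0.08) and Slc38a2 (-0.01) differed little. All 20 aminoacyl-tRNA synthetases were measured, at a median of -0.15. Of these, 16 had intervals below 1 (35.0% of compared genes) and 19 were lowest at 24 h (29.2%). Regulators of the response did not share one direction. Atf4 itself stood at 367 and 358 CPM (-0.03), Atf5 at -0.35 and Ddit3, the death-linked factor CHOP, at 14.3 and 18.4 CPM (0.36, 0.20 to 0.52), although Ddit3 shares exon positions with another entry of its name.

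The element TGATGNAA, bound by pairs of ATF4 and C/EBP factors, was in the window of 3.91% of all genes, 2.29% of compared genes and 3 of 11 amino acid synthesis genes: Asns, Got1 and Pycr1, of which Got1 stood at 0.12. It was in 0 of 4 transporter genes with a window, in 2 of 37 genes that rose (5.41%, Frmd4b and Nlrp1b) and in 0 of 6 that fell. The window of Asns, chr6:7693210-7693459 on the minus strand, is shown because this gene is the standard target of ATF4. The match, in capitals, lies 23 bases before the start.
Asns: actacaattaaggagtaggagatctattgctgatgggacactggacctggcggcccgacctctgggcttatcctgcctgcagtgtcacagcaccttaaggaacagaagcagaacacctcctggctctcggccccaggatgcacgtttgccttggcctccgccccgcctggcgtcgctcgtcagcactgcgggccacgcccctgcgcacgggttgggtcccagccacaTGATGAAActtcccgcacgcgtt

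Genes of cholesterol synthesis were lower at 24 h than at 12 h, with a list median still above vehicle. All 22 measured mevalonate and cholesterol enzymes stood below a ratio of 1, 21 with intervals below 1 (35.0% of compared genes), and their median was -0.26 with 1 past the rule. Over vehicle they stood at a median of 0.98 at 12 h and 0.74 at 24 h, and 0 of the 22 were lowest at 24 h.

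Within the pathway the values were graded. Acat2, which joins acetyl groups at the start of the pathway, stood at 70.3 CPM in vehicle and at 81.4, 146, 208 and 153 CPM after 2, 6, 12 and 24 h. It was highest at 12 h and at 24 h stood near its level at 6 h, a ratio of -0.44 (-0.49 to -0.40) that did not pass the rule. Mvk stood at -0.48, Hsd17b7 at -0.43, Hmgcs1 at -0.32 (478 and 383 CPM) and Sqle at -0.26 (356 and 297 CPM), while the retention factor Insig1 (112 and 114 CPM, 0.02) and Srebf1 (154 and 156 CPM, 0.02) differed little. Of 7 genes of cholesterol disposal, 1 had an interval above 1 (19.4% of compared genes) and 4 below (35.0%), with a median of -0.06. The 1 above was the exporter Abcg1, at 7.08 and 10.4 CPM (0.55, 0.33 to 0.78). It was compared through the 24 h library alone, so it had to be higher at 24 h. The LXR partner Rxra stood at 21.6 and 14.5 CPM (-0.57, -0.73 to -0.42). Abca1 was at 0 counts in all 5 libraries. Fatty acid synthesis had a median of -0.25 over 12 genes, 9 with intervals below 1 (35.0% of compared genes) and 0 past the rule. Over vehicle its median was 0.89 at 12 h and 0.60 at 24 h. Fasn, the fatty acid synthase, stood at 805 and 626 CPM (-0.36), Elovl6 at -0.43 and Scd2 at -0.15.

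**Figure D4:**
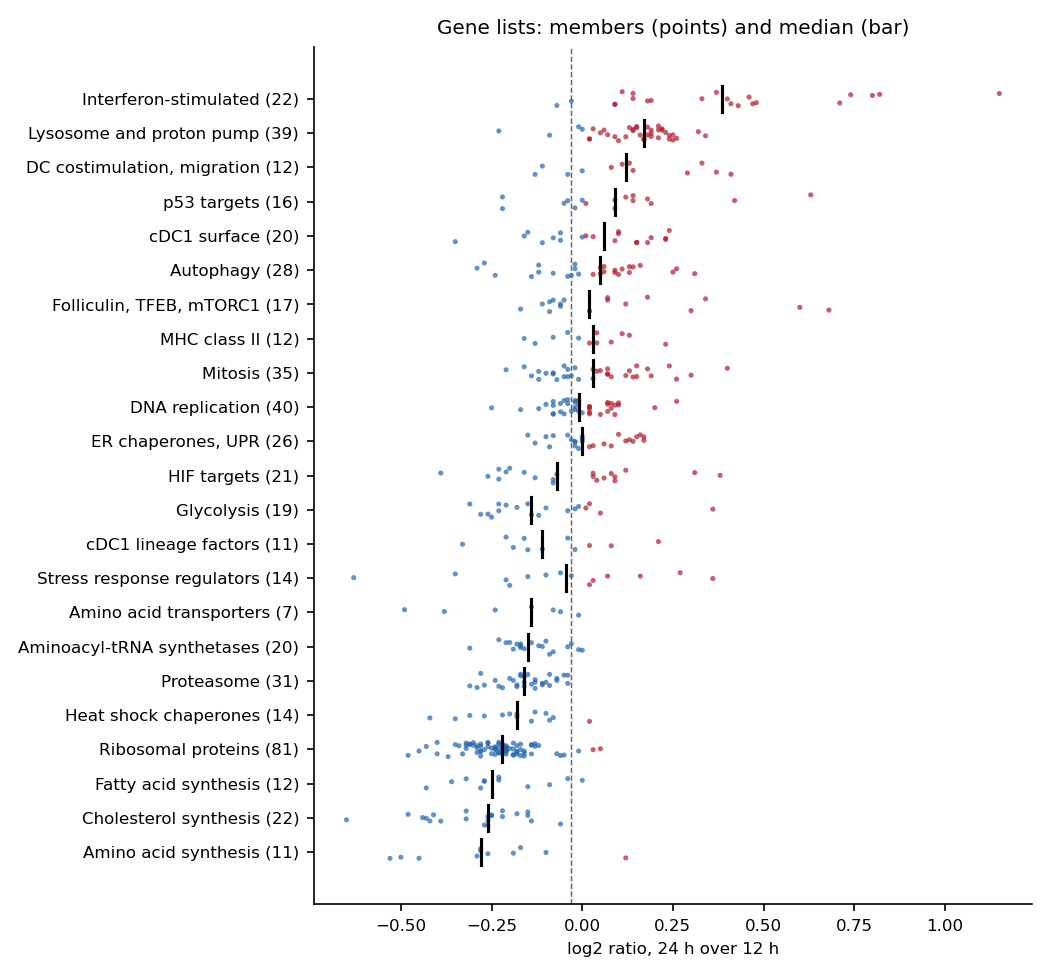
Log2 ratio of 24 h over 12 h (horizontal axis) of each measured member (points, blue below 0 and red above) and list median (black bars) for 23 gene lists with their number of measured members; the dashed line is the median of all compared genes, -0.03. Interferon-stimulated genes (0.39) and lysosomal genes (0.17) lie to the right, and amino acid synthesis (-0.28), cholesterol synthesis (-0.26), fatty acid synthesis (-0.25) and ribosomal proteins (-0.22) to the left.

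Targets of the hypoxia-inducible factors, which had built up by 12 h, neither rose nor fell by the rule. The list of 21 had a median of -0.07, and over vehicle of 1.43 at 12 h and 1.23 at 24 h. Its members went both ways. Ak4, a mitochondrial adenylate kinase, stood at 0.427 CPM in vehicle and at 1.42, 7.09, 14.7 and 18.2 CPM after 2, 6, 12 and 24 h (0.31), and Mgarp, of mitochondrial transport, went from 12.3 to 16.0 CPM (0.38). Against these, Ankrd37 stood at -0.39, P4ha2, a collagen prolyl hydroxylase, at -0.26 and Bnip3, a mitophagy receptor, at -0.13.

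Glucose genes leaned lower, with a median of -0.14 over 19 genes of uptake and glycolysis. Intervals lay below 1 for 13 (35.0% of compared genes) and above 1 for 3 (19.4%). Pgam1 had -0.31, the lactate exporter Slc16a3 -0.28 (590 and 485 CPM), the glucose transporter Slc2a1 -0.18 (202 and 178 CPM) and Aldoc the opposite sign, 0.36 (123 and 158 CPM). Txnip, an arrestin that limits glucose uptake, stood at 96.1 CPM in vehicle and at 116, 134, 189 and 258 CPM after 2, 6, 12 and 24 h, higher at each time point than at the one before, and the last step was 0.45 (0.41 to 0.49). Vegfa, at 5.19 and 4.85 CPM, was too low to be compared.

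Genes of protein synthesis and turnover were lower together by small amounts. Of 81 measured cytosolic ribosomal proteins, 77 had intervals below 1 (35.0% of compared genes), 77 were lowest at 24 h (29.2%), 0 passed the rule and the median was -0.22, -0.20 after adjustment for length and GC content. Rpl10a stood at 611 and 439 CPM (-0.48), Rpl12 at 627 and 460 (-0.45) and Rpl3 at 1068 and 806 (-0.40). All 31 proteasome subunits stood below a ratio of 1 (5103 of 8596 compared genes did), at a median of -0.16. Of 14 heat shock chaperones, 13 had intervals below 1 (35.0% of compared genes), at a median of -0.18. The lowest were Hsph1 (-0.42) and Hsp90ab1 (-0.35, 2781 and 2183 CPM). ER chaperones, the targets of the unfolded protein response, had a median of 0.00, with Hspa5 at -0.02. Mitochondrially encoded RNAs stood at -0.04.

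**Figure D5:**
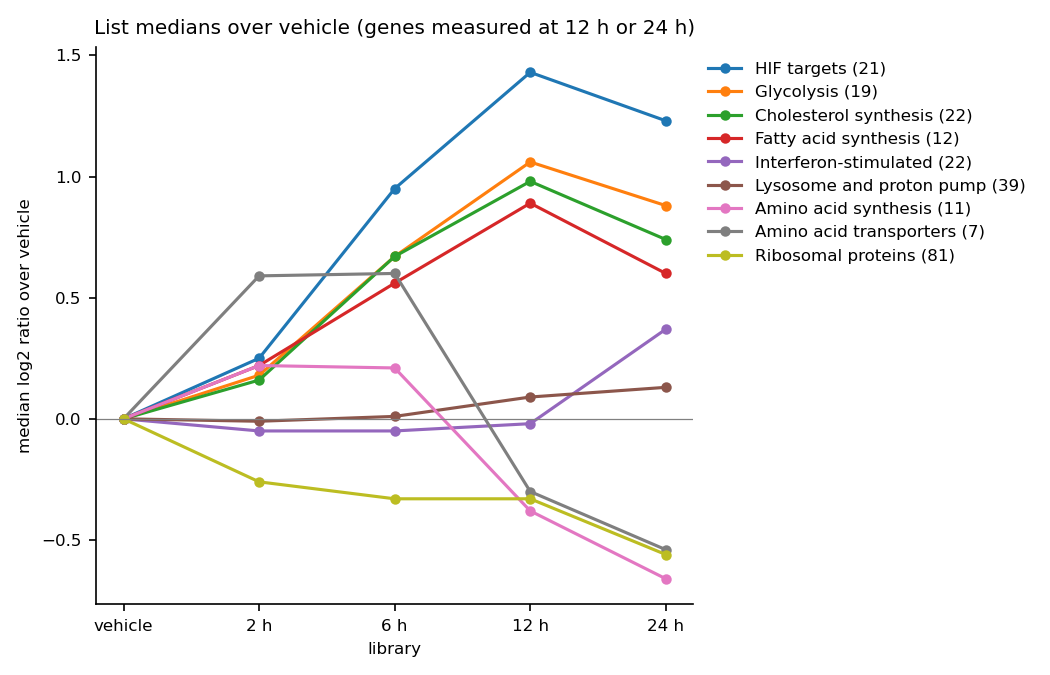
Median log2 ratio over vehicle (vertical axis) of 9 gene lists in each library (horizontal axis), with the number of measured members in brackets; points are medians over genes, all drawn against the same vehicle library. HIF targets, glycolysis, cholesterol and fatty acid synthesis are highest at 12 h, interferon-stimulated genes leave the line of 0 only at 24 h, and ribosomal proteins and amino acid genes are lowest at 24 h.

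Markers of the labelled cell type were present in both libraries. Of 12 cDC1 markers, 11 had at least 10 CPM, and their summed level was 7281 CPM at 12 h and 6870 at 24 h, a log2 ratio of -0.08. Irf8, Wdfy4 and Naaa carried most of that sum. Itgae was low, with 2.17 and 1.48 CPM, and Ccr7 was nearly absent. Irf8, the factor that defines the lineage, stood at 3663 and 3283 CPM (-0.16), Batf3 at 50.2 and 43.4 CPM (-0.21), Runx3 at -0.33 and Cd8a, a surface marker of the subset, at 17.5 and 13.7 CPM (-0.35). Cd8a and Batf3 had stood at 32.5 and 71.7 CPM in vehicle. The 11 measured lineage factors had a median of -0.11, with 2 intervals above 1 and 4 below. These counts were near the shares of all compared genes, 19.4% above and 35.0% below. The 20 surface and cross-presentation genes had a median of 0.06, with 11 intervals above 1 and 6 below, among them Clec9a, a receptor for dead cells, at 0.18, Cadm1, an adhesion molecule, at 0.15 and Cd36, a scavenger receptor, at 0.24. MHC class II genes had a median of 0.03, with H2-Ab1 at -0.08. Among genes of costimulation, Cxcl16 had 0.41, Cd83 0.37, Cd80 0.33 and Cd86 -0.04, with a median of 0.12 and 0 of 12 past the rule.

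Because several genes that rose are also known from macrophages, markers of that and other cells were set beside them. Of 12 macrophage or monocyte markers, 6 had at least 10 CPM, Mertk was at 0, Adgre1, which encodes F4/80, stood at 0.212 and 0.445 CPM, and the sum was 490 CPM at 12 h and 515 at 24 h (0.07), below the 734 CPM of vehicle. Csf1r, the receptor for macrophage growth factor, stood at 100 CPM at 12 h and 137 CPM at 24 h (0.45, 0.39 to 0.51). All 5 NK cell markers, 4 of 6 T cell markers and 5 of 6 neutrophil markers were at 0 in both libraries, and the 4 plasmacytoid markers summed to 87.5 and 93.9 CPM. The part of other cells in the genes that rose was not tested beyond these values.

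Cell cycle genes differed little, with medians of -0.01 over 40 DNA replication genes and 0.03 over 35 mitosis genes, 0 past the rule in either, and Mki67, a proliferation marker, at 513 and 508 CPM. Immediate early genes did not share a direction: Fos stood at 15.9 and 22.3 CPM (0.49), Egr1 at 0.36 and Junb at -0.30. Myc had -0.17, Hmox1 0.02 and Sqstm1 -0.24. Slc11a1, a metal transporter of phagosomes, stood at 0.41 and the iron store Fth1 at -0.33.

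The largest ratios of all belong to entries whose exons overlap other genes. Mfsd4a stood at 2.68 CPM in vehicle and at 0.857, 16.4, 15.3 and 0.960 CPM after 2, 6, 12 and 24 h, a ratio of -3.92 (-4.48 to -3.53), and shares exon positions with Elk4 on the opposite strand. Elk4 itself stood at 45.7 CPM at 12 h and 47.3 at 24 h (0.05), and the sum of Mfsd4a and Elk4 had -0.34. Gm45140 went from 10.6 to 1.31 CPM (-2.97). Isy1 (-0.32) and Rab43 (674 and 609 CPM, -0.15), which share its exons, were also lower. The sum of Gm45140, Isy1 and Rab43 had -0.18. Gm10143, antisense to Fen1, went from 2.97 to 10.2 CPM (1.76). Fen1 stood at 216 and 186 CPM (-0.22), and the sum of both had -0.16. Where 1 entry is far more abundant, a locus sum follows that entry and cannot show whether reads moved between entries. Such movement was not tested.

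Sharing on the same strand was more frequent among the genes past the rule than among all compared genes, while on either strand the genes that rose were near the share of all. Exon positions on the same strand were shared by 12 of the 52 that rose (23.1%) and 6 of the 11 that fell (54.5%), against 8.59% of compared genes. On either strand the shares were 40.4%, 81.8% and 37.4%. The library kit does not mark strand, and the sources used here do not say how the counting treated shared positions. For Gm21982 (0.98) with Haus5 and Rbm42 the locus sum had -0.13, for Gm21981 (0.66) with Prickle4 and Tomm6 0.02, for Derpc (0.65) with Chtf8 -0.04, for Rbm12 (-0.60) with Cpne1 and Gm28036 -0.13, and for the 2 entries of Nnt, of which 1 rose by 0.60, 0.01. Itgam summed with Gm49368, which fell (-0.85), and Gm45700 stood at 0.47, short of the rule. Without entries that share exon positions on either strand, 31 genes rose and 2 fell, Trib3 and Fam43a.

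Set against vehicle, the 52 genes that rose took different routes. From 12 to 24 h, 27 moved further from their vehicle level, 19 crossed it and 6 moved back towards it, and 22 were at least 2-fold above vehicle at 24 h. The median over vehicle was 0.06 at 12 h and 0.84 at 24 h, with libraries shared between these ratios and the step. In the steps that share no library with it, the same genes had medians of 0.04 for 2 h over vehicle, 28 of them above, and 0.04 for 6 h over 2 h, 27 above. All compared genes had medians of 0.03 and 0.02 in those steps. Of the 11 that fell, 7 moved further from vehicle, 3 crossed it and 1 moved back. The 11 were chosen for a lower level at 24 h, and 9 were lowest there (29.2% of compared genes were). Routes against vehicle were not counted over all compared genes.

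The libraries also differed in the make-up of transcripts. The median log2 ratio was 0.04 in the quintile of genes with the lowest GC content and -0.09 in that with the highest, and -0.06 for the shortest transcripts and 0.00 for the longest. After adjustment for both, 45 of the 52 genes still rose and 10 of the 11 still fell. Mitochondrially encoded genes took 1.74% of counts at 12 h and 1.78% at 24 h.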

How the data were processed

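The authors deposited raw counts per gene for 53700 entries and 5 libraries, 1 per time point. Per the submitters' processing notes, the tools were Trim Galore and HISAT2 and the mouse build was GRCm38. The sources used here do not give the counting program or the annotation behind the counts. Per the labels' protocols, poly-A RNA was sequenced with a kit that does not mark strand.

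From these counts, TMM factors (edgeR 4.0.16, R 4.3.3; 0.977 to 1.05) and log2 CPM with a prior count of 2 were computed, and entries with at least 10 CPM at 12 or 24 h were compared. With 1 library per side edgeR's quasi-likelihood test could not be used, so a rule of size (1.5-fold or 2-fold, 95% exact interval excluding 1) was applied and checked on simulated data. Intervals take 1 count as 1 read, and PCR copies are not independent molecules. A count of 0 allows up to 3 counts, 0.0795 CPM at 12 h and 0.0703 at 24 h. Positions, exon overlaps, lengths and GC content came from GENCODE's GRCm38 annotation (99.87% of compared genes), and promoters from RefSeq. Ratios were adjusted for length and GC content by lowess (statsmodels 0.14.6).

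The comparison, the 52 gene lists and the named-gene rule were chosen with earlier results of these data known, and 11 families and the role groups after the values were seen. Named genes were the 15 largest and 15 smallest ratios past 1.5-fold with an ordinary symbol, up to 4 per list, and genes fixed by name. A list used the entry with the most counts where a symbol had several. A few genes that enter the counts are not reported by name here.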

Additional observations from a re-analysis of the deposited data

How the results depend on the processing

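Counts of genes depended most on the filter. The 52 genes higher and 11 lower by 1.5-fold and the 6 higher and 2 lower by 2-fold became 80, 21, 10 and 8 with at least 5 CPM, 25, 6, 1 and 0 with at least 20 CPM, and 701, 361, 436 and 257 with no filter. Scaling to library totals moved all ratios up by a median of 0.08 and gave 75 higher and 5 lower by 1.5-fold. DESeq2 size factors, upper-quartile factors, other prior counts, summing entries that share a symbol, and adjustment for length and GC content kept each count within 1.5 times. Further settings were chosen after seeing the data. Entries sharing no exon position gave 31 higher and 2 lower by 1.5-fold and 0 lower by 2-fold; ordinary symbols alone gave 6 lower by 1.5-fold and 1 by 2-fold; a mean of at least 10 CPM over the 5 libraries gave 32 higher by 1.5-fold, 2 higher and 1 lower by 2-fold. The median of the 4 glucose-sensing arrestin and Mlx genes, 0.14, was -0.08 with at least 20 CPM and with the mean filter, each over 3 genes. No other list median of at least 0.1 in size, and no ratio of a named gene past the rule, changed sign under these settings. No paired analysis was possible because each time point has 1 library. Depth limits single genes little at 10 CPM, while the spread between cultures is unknown.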
